A study of Rattus norvegicus with 50 samples.

Results

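The comparison described here sets the AMPK activator MK-8722 against the angiotensin-converting enzyme inhibitor enalapril in the kidney medulla of obese ZSF1 rats. Its members were chosen by group label. They are 10 of the 50 libraries of the series, 5 from obese rats given MK-8722 at 10 mpk and 5 from obese rats given enalapril (spelled Enalpril in the sample titles) at 10 mpk. The dose unit mpk is the labels' own. Beside them stood 3 further medulla groups of 5 libraries, from obese rats given MK-8722 at 1 mpk, obese rats given vehicle, and lean rats given vehicle. The cortex was sampled in the same 5 groups. All rats were of the ZSF1 strain, and all groups shared a labelled treatment time of 28 weeks. The labels also give an age of 20 weeks, which does not match that treatment time. They do not say which libraries came from one animal, so p-values measure only the spread between these libraries, which may be partly technical.

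AMPK, the AMP-activated protein kinase, is an energy sensor built from catalytic and regulatory subunits. When activated it phosphorylates metabolic enzymes and regulators, slowing lipid synthesis and favouring fuel oxidation. MK-8722 is a small molecule that activates the kinase in all its subunit combinations. Enalapril lowers the formation of angiotensin II by inhibiting its converting enzyme, and kidney cells respond to such inhibitors by making more renin. The renal medulla holds loops of Henle, collecting ducts and vasa recta, and concentrates the urine. The obese ZSF1 rat is used as a model of diabetic nephropathy, with the lean rat as its control. The values are bulk measurements of tissue pieces, so fewer cells of a type and less RNA per cell cannot be told apart.

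Genes are given by Ensembl ID, because the deposited table holds 32545 IDs without names and 0 of them matched the reference gene table. No name, role or sequence is therefore attached to an ID, and neither the defining markers of medulla nor any pathway list could be read. IDs that differed at least 8-fold between lean medulla and lean cortex gave a check of the tissue labels. There were 44 such IDs higher in medulla and 5 higher in cortex. Relative to the midpoint of the lean tissues, the median log2 value of the 44 lay above 0 in all 20 medulla libraries and below 0 in all 20 cortex libraries of the obese groups; the lean libraries chose the IDs and give no check. It ran from 1.00 to 1.74 in the MK-8722 libraries and from 0.58 to 1.50 in the enalapril libraries.

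MK-8722 10 mpk and enalapril left the medulla with different levels of a small share of genes. Values were compared as log2(FPKM + 0.5), where FPKM counts fragments per kilobase of transcript relative to the mapped fragments of the library. The limma fit covered the 13337 genes with at least 1 FPKM in 5 or more of the 10 libraries, and a gene was called at a Benjamini-Hochberg adjusted p under 0.05. On the deposited values 114 genes were higher with MK-8722, 0.855% of those tested, and 273 were lower, 2.05%. The 387 calls made up 2.9% of the genes tested. At least a 2-fold difference was reached by 18 of the higher and 27 of the lower genes. A fit of the 2 drug groups alone called far fewer genes, 17 higher and 32 lower.

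The balance between higher and lower genes turned round with the scale. After rescaling, in which a library's values are divided by the median of their ratios to each gene's geometric mean, 179 genes were higher with MK-8722 (1.34%) and 107 were lower (0.802%), 286 calls in all (2.14%). The fit of the 2 drug groups alone gave 25 higher and 16 lower genes on this scale. The median log2 difference over all 13337 genes was -0.05 on the deposited values and close to 0 after rescaling (-0.0014). All 107 genes called lower after rescaling were among the 273 called lower before it. The other 166 deposited calls of a lower level were lost, and 66 genes were called higher only after rescaling. Whether more genes were higher or lower with MK-8722 thus depended on the scaling, whereas the calls shared by both scales were nearly even, at 113 higher (0.847%) and 107 lower (0.802%), 220 in all (1.65%).

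**Figure D1:**
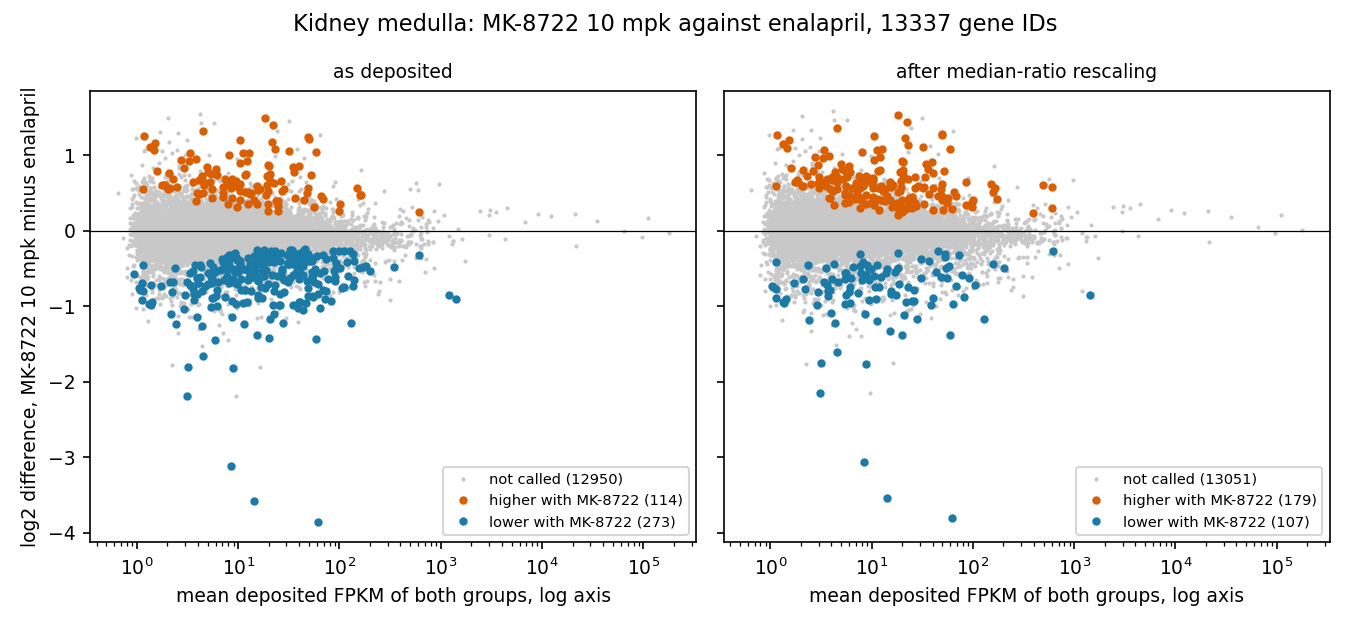
Each point is 1 of 13337 gene IDs in medulla, with its mean deposited FPKM over the 10 libraries on a log axis (x) and the log2 difference, MK-8722 10 mpk minus enalapril (y), on deposited values (left) and after rescaling (right). Orange points were called higher and blue points lower with MK-8722: 114 and 273 on deposited values, 179 and 107 after rescaling.

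The 220 genes called on both scales moved mostly by less than 2-fold. In the 113 higher genes the median log2 difference on the deposited values was 0.61, and the range was 0.25 to 1.49. In the 107 lower genes the median was -0.78, and the range was -0.32 to -3.85. Of the higher genes 18 reached 2-fold and none reached 4-fold, while 23 of the lower genes reached 2-fold and 4 of those reached 4-fold. The 4 genes past 4-fold were all lower with MK-8722. The standard error of a log2 difference had a median of 0.13 over all genes.

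The called genes spanned the range of abundance. Their median mean level was 11.2 FPKM for the higher and 9.89 FPKM for the lower genes, against 8.43 FPKM over all genes tested. Among genes with a mean of 30 to 100 FPKM, 1.06% were higher and 1.39% were lower on both scales. Among genes under 3 FPKM the shares were 0.584% and 0.584%, and the median standard error there was 0.19 against 0.10 in the band of 30 to 100 FPKM. In the bands of 3 to 10, 10 to 30, and 100 FPKM and over, 0.727%, 1.09% and 0.823% were higher. The shares lower there were 0.810%, 0.658% and 1.23%, with median standard errors of 0.13, 0.10 and 0.10. The shares did not follow the error in step over the bands, and its part in the calls was not tested.

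The 5 values of one drug did not overlap the 5 of the other in 64 of the 113 higher and 70 of the 107 lower genes on the deposited values. Over all genes tested this held for 314 genes (2.35%), of which 95 were higher (0.712%) and 219 lower (1.64%) with MK-8722. After rescaling the groups were apart in 81 of the higher and 50 of the lower genes, against 289 over all genes (2.17%), of which 198 were higher (1.48%) and 91 lower (0.682%). The rest of the called genes had at least 1 library inside the other group's range.

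ENSRNOG00000013062 showed the largest difference of any gene tested. Its level was 8.70, 5.42, 6.68, 11.2 and 5.78 FPKM in the 5 MK-8722 libraries, against 71.2, 98.2, 139, 145 and 126 FPKM in the 5 enalapril libraries. The lowest enalapril library was above the highest MK-8722 library by a wide margin. The rule for naming IDs in the drug contrast required groups that do not overlap, so that separation was fixed in advance. The means were 7.55 ± 2.40 FPKM with MK-8722 and 116 ± 30.7 FPKM with enalapril (SD, n = 5 each). The log2 difference was -3.85 ± 0.24 (SE; limma adjusted p = 7.94e-10), and -3.80 after rescaling.

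The drugs moved ENSRNOG00000013062 in opposite directions from the obese vehicle level. That level was 41.5 ± 10.9 FPKM, and lean vehicle medulla had 26.5 ± 5.72 FPKM (SD, n = 5 each). Against obese vehicle, the log2 difference was -2.39 ± 0.24 for MK-8722 (SE; limma adjusted p = 3.75e-06) and 1.46 ± 0.24 for enalapril (limma adjusted p = 0.00764). Both comparisons use the same 5 vehicle libraries. The rescaled enalapril difference of 1.59 (limma adjusted p = 0.0133) was no longer called without enalapril replicate 5, at 1.51 (limma adjusted p = 0.0566). At 1 mpk, MK-8722 medulla had 24.9 ± 9.87 FPKM, a log2 difference from obese vehicle of -0.76 that was not called (limma adjusted p = 1.00).

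ENSRNOG00000018402 had the next largest fall among the IDs that met the naming conditions. It stood at 2.80, 0.438, 1.52, 1.59 and 1.94 FPKM in the MK-8722 libraries, against 18.8, 9.98, 31.5, 49.6 and 23.7 FPKM in the enalapril libraries. As the naming rule required, all MK-8722 libraries were below all enalapril libraries. The enalapril libraries were widely spread among themselves. The means were 1.66 ± 0.85 FPKM with MK-8722 and 26.7 ± 15.0 FPKM with enalapril (SD, n = 5 each). The log2 difference was -3.58 ± 0.44 (SE; limma adjusted p = 8.03e-05), and -3.53 after rescaling.

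Against obese vehicle, with 8.72 ± 5.76 FPKM (SD, n = 5), ENSRNOG00000018402 was also lower with MK-8722 and higher with enalapril. The log2 differences were -1.90 ± 0.44 (SE; limma adjusted p = 0.00772) for MK-8722 and 1.69 ± 0.44 (limma adjusted p = 0.0249) for enalapril. The enalapril call rested on few libraries: it was lost without obese vehicle replicate 7, at 1.24 (limma adjusted p = 0.0938), without obese vehicle replicate 6, at 1.59 (0.0595), and without enalapril replicate 5, at 1.58 (0.0749). On rescaled values it was 1.80 (limma adjusted p = 0.0344) and was lost without enalapril replicates 2, 5, 6 or 7, each left out alone, with adjusted p between 0.0590 and 0.105. The rescaled MK-8722 difference, -1.73 (limma adjusted p = 0.0251), was lost without MK-8722 replicate 2, at -1.45 (0.0579). Lean vehicle medulla had 4.79 ± 1.34 FPKM and 1 mpk MK-8722 medulla 2.73 ± 0.58 FPKM (SD, n = 5 each).

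ENSRNOG00000010932 had the largest rise among the IDs that met the naming conditions. Its level was 19.2, 24.1, 36.8, 27.6 and 28.8 FPKM with MK-8722, against 11.4, 6.69, 8.71, 12.7 and 7.77 FPKM with enalapril. The groups did not overlap, as the naming rule required. The means were 27.3 ± 6.48 FPKM with MK-8722 and 9.46 ± 2.53 FPKM with enalapril (SD, n = 5 each), a log2 difference of 1.49 ± 0.28 (SE; limma adjusted p = 0.00513), or 1.53 after rescaling. With a term for the order of library numbers the log2 difference was 1.28 and was not called (limma adjusted p = 0.0797).

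For ENSRNOG00000010932 the MK-8722 level stood apart from obese vehicle medulla. Against obese vehicle, at 8.46 ± 3.89 FPKM (SD, n = 5), it rose by 1.72 ± 0.28 on the log2 scale with MK-8722 (SE; limma adjusted p = 0.000835). With enalapril the log2 difference was 0.24 ± 0.28 and was not called (limma adjusted p = 0.572). Obese vehicle was below lean vehicle, which had 23.1 ± 2.21 FPKM, by a log2 difference of -1.52 (limma adjusted p = 6.19e-05). The MK-8722 libraries thus lay around the lean values and the enalapril libraries around the obese vehicle values, whereas the 1 mpk libraries had 7.54 ± 2.98 FPKM.

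ENSRNOG00000055586 was likewise highest with MK-8722, with a smaller error. It had 22.7, 35.7, 35.0, 32.0 and 36.1 FPKM with MK-8722, against 12.2, 10.9, 14.0, 12.4 and 10.1 FPKM with enalapril. MK-8722 replicate 1 was the lowest of its group and, as the naming rule required, above every enalapril library. The means were 32.3 ± 5.61 FPKM with MK-8722 and 11.9 ± 1.48 FPKM with enalapril (SD, n = 5 each), a log2 difference of 1.39 ± 0.16 (SE; limma adjusted p = 1.38e-05), or 1.44 after rescaling. Against obese vehicle, at 11.9 ± 1.40 FPKM, the log2 difference was 1.39 for MK-8722 (limma adjusted p = 8.29e-06) and -0.0035 for enalapril (limma adjusted p = 0.990). Lean vehicle medulla had 20.4 ± 4.25 FPKM, and all its libraries were below 4 of the 5 MK-8722 libraries.

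**Figure D2:**
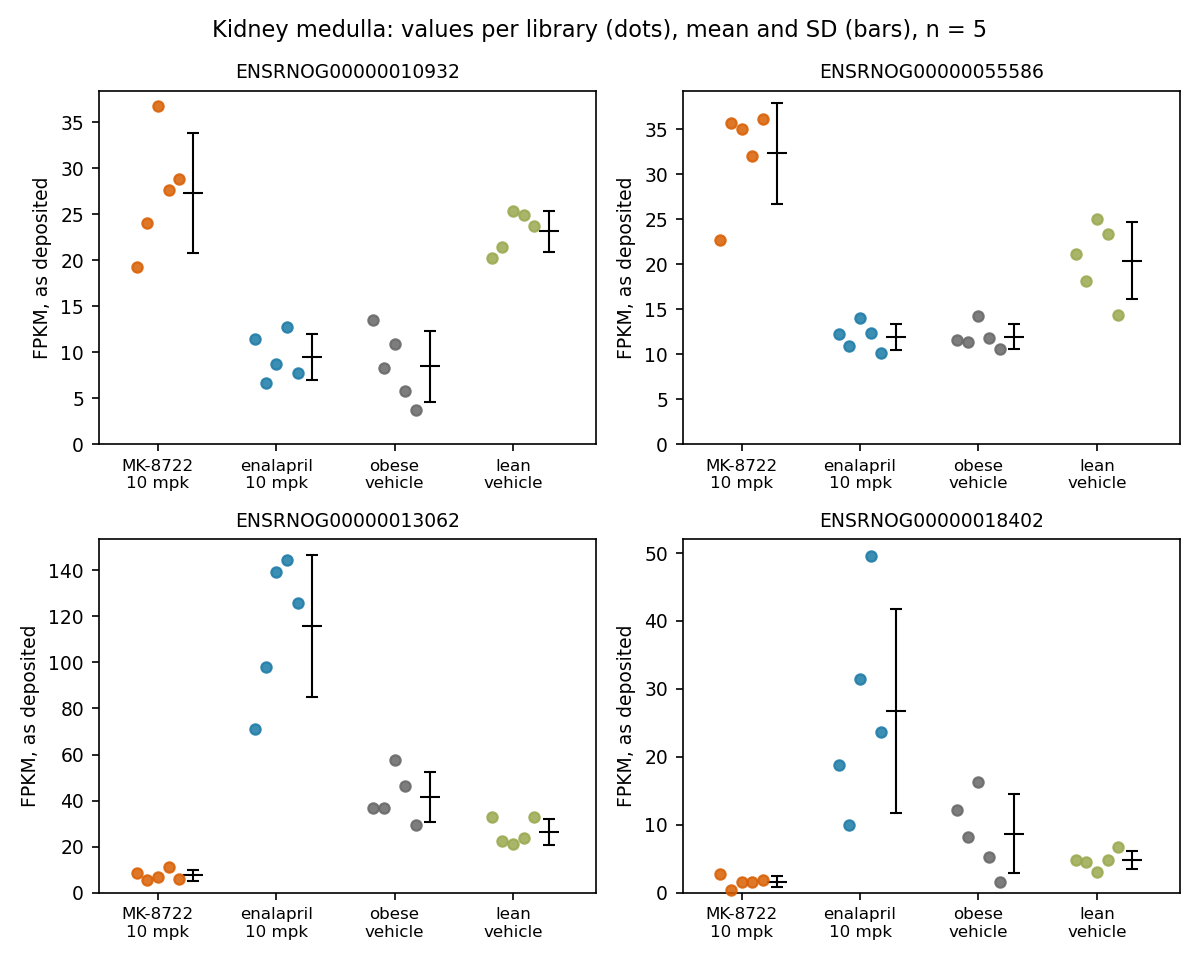
Deposited FPKM on linear axes (y) of 4 gene IDs in 4 medulla groups (x); dots are the 5 libraries of a group and bars the mean and SD. The upper IDs have means of 27.3 and 32.3 FPKM with MK-8722 against 9.46 and 11.9 FPKM with enalapril. The lower IDs have means of 7.55 and 1.66 FPKM with MK-8722 against 116 and 26.7 FPKM with enalapril. In the lower IDs the obese vehicle mean lies between those of the drugs. For ENSRNOG00000018402 the obese vehicle libraries ran from 1.65 to 16.4 FPKM and overlapped both drug groups.

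Each drug's own difference from obese vehicle was read for the 220 genes called on both scales. These comparisons share libraries with the contrast that chose the genes, so their counts are a description. On deposited values the median of all genes was shifted by -0.18 with MK-8722 and by -0.13 with enalapril, and by -0.01 for each after rescaling, so the rescaled values are given first. Of the 113 genes higher with MK-8722 than with enalapril, 87 were called higher with MK-8722 than with vehicle and none lower. Over all genes that comparison called 5.53%, with 3.28% higher and 2.26% lower. In the same 113 genes enalapril against vehicle gave 2 higher and 5 lower (over all genes 4.72% were called, 2.53% higher and 2.18% lower). Their median log2 difference from vehicle was 0.58 for MK-8722 and -0.03 for enalapril.

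The 107 lower genes were read in the same way. After rescaling, 24 of them were called lower with MK-8722 than with vehicle and none higher (over all genes, 2.26% lower). Enalapril against vehicle gave 32 higher and 1 lower (over all genes, 2.53% higher and 2.18% lower). The median log2 difference from vehicle was -0.30 for MK-8722 and 0.41 for enalapril. The deposited values gave another split: 66 were lower with MK-8722 (over all genes, 17.5%) and 26 higher with enalapril (over all genes, 1.68%), and among the 113 higher genes 68 were higher with MK-8722 (1.69%) and 18 lower with enalapril (9.49%). How many of the lower genes are assigned to one drug therefore depends on the scale.

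The same 220 genes were then read in cortex, whose libraries had no part in choosing them. Whether these came from the same animals as the medulla libraries is not labelled. In cortex 99 of the 113 higher genes passed the filter of that tissue, and 72 of them were also called higher with MK-8722 than with enalapril while 1 was called lower. Over all 12719 genes tested in cortex 4.01% were called higher and 6.2% lower. Of the 107 lower genes 99 passed in cortex, and 66 were called lower and 0 higher. Their log2 differences from enalapril had medians of 0.57 and -0.54, against -0.0090 over all genes. After rescaling, 76 of the higher genes were called higher and 62 of the lower genes lower, against 5.64% and 5.72% over all genes.

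Cortex libraries carry library numbers in 2 separate ranges, and 3 of the 5 MK-8722 10 mpk libraries but 1 of the 5 enalapril libraries fall in the higher range. Within the lower range, which left 2 MK-8722 and 4 enalapril cortex libraries, 37 of the 99 higher genes were called higher and 34 of the 99 lower genes lower. Over all genes that smaller fit called 126 higher and 118 lower. The medians of the sets there were 0.58 and -0.41. All 10 medulla libraries compared belong to the lower range.

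The low dose of MK-8722 was compared with obese vehicle, 10 medulla libraries none of which entered the contrast between the drugs. They did enter the fit that chose the genes, through its shared estimate of spread and its rescaling. limma called 0 genes there on either scale, with 524 on deposited and 364 on rescaled values at an unadjusted p under 0.05. Both counts were below a share of 0.05 of the 13337 genes tested, the share that chance alone would give. The counts by themselves therefore show no excess of low p-values at 1 mpk. After rescaling, 97 of the 113 higher genes had a positive log2 difference at 1 mpk, 85.8% against 50.3% of all genes, with a median of 0.12. Of the 107 lower genes 90 had a negative one, with a median of -0.13. Both were smaller than at 10 mpk, whose rescaled medians against the same vehicle libraries were 0.58 and -0.30. The 10 mpk libraries were in the contrast that chose the genes. On deposited values, where 31.0% of all genes were positive, 86 of the 113 were positive and 98 of the 107 negative. When each of the 10 libraries was left out in turn, the number of positive differences after rescaling lay between 90 and 100 among the higher genes. Among the lower genes it lay between 12 and 28, against 17 with all libraries, and their median ran from -0.16 to -0.09.

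Both sets held genes that differed between obese and lean vehicle medulla in either direction. In that comparison 54.1% of all genes were called after rescaling, 27.2% higher and 26.9% lower in obese medulla. Among the 113 genes higher with MK-8722, 27 were higher in obese medulla and 53 lower, with a median log2 difference of -0.18. Among the 107 genes lower with MK-8722, 16 were higher and 57 lower, with a median of -0.33. After rescaling, more genes of each set were thus lower than higher in obese medulla. The deposited values, whose median over all genes was 0.36, gave 51 higher and 33 lower in the first set and 31 higher and 35 lower in the second, against 68.9% called over all genes, 57.6% higher and 11.2% lower.

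**Figure D3:**
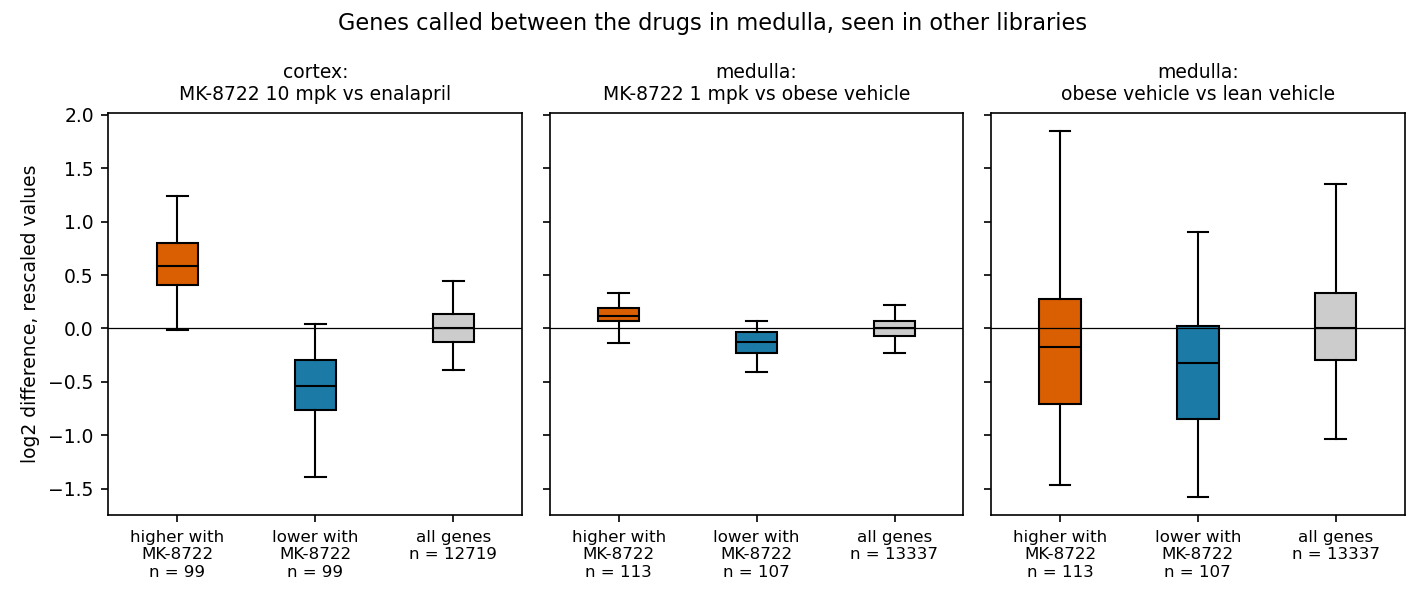
Log2 differences on rescaled values (y) in 3 comparisons that share no library with the contrast between the drugs in medulla. Genes called higher with MK-8722 than with enalapril on both scales are orange, those called lower blue, and all genes tested grey. The medulla libraries of these comparisons did enter the fit that chose the genes, through its shared spread and rescaling. Boxes span the quartiles with the median as a line and whiskers the 5th and 95th percentiles; the orange and blue medians are 0.59 and -0.54 in cortex, 0.12 and -0.13 at 1 mpk, and -0.18 and -0.33 for obesity.

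The effect of MK-8722 against enalapril differed between medulla and cortex in few genes. A limma fit over all 50 libraries tested 13751 genes for a difference of the 2 effects. It called 19 on deposited values (0.138%), 7 more positive (0.0509%) and 12 more negative (0.0873%) in medulla. After rescaling it called 22 (0.16%), 10 more positive (0.0727%) and 12 more negative (0.0873%). On these scales 817 and 965 genes had an unadjusted p under 0.05. Of the 15 called on both scales, 8 were called between the drugs in cortex only, 2 in medulla only and 1 in both. The remaining 4 fell below the filter in medulla, and 2 of the 15 had values of at least 1 FPKM in a single one of the 4 groups. The ID called in both, ENSRNOG00000019763, went in opposite directions on deposited values. Its log2 difference was 0.41 in medulla (limma adjusted p = 0.0370) and -0.94 in cortex (limma adjusted p = 0.000116). Among the IDs tested in both tissues, 5 had effects of opposite sign. In cortex itself 1298 of 12719 genes were called between the drugs (10.2%), more than in medulla, but a call in one tissue and not the other is no test of a difference. With the lower range of library numbers alone, which also cut the cortex groups to 2 MK-8722 and 4 enalapril libraries, 4 genes were called. Range and number of libraries cannot be told apart in that fit.

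ENSRNOG00000013290 differed between the drugs in medulla and not detectably in cortex. In medulla it had 19.4, 13.9, 13.8, 15.5 and 10.8 FPKM with MK-8722, against 10.2, 5.17, 4.77, 7.81 and 3.80 FPKM with enalapril, with no overlap. In cortex all 10 libraries lay between 0.558 and 1.31 FPKM. The log2 difference was 1.20 ± 0.22 in medulla (SE; limma adjusted p = 0.00317) and -0.29 ± 0.14 in cortex (limma adjusted p = 0.237), and the effects differed by 1.49 ± 0.26 (limma adjusted p = 0.00181). At these low cortex levels the pseudocount of 0.5 shrinks a log2 difference. With the lower range of library numbers alone, which left fewer libraries, the difference was 1.46 and was not called (limma adjusted p = 0.164).

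ENSRNOG00000013290 is 1 of the 44 medulla-enriched IDs, with a log2 difference of 3.57 between lean medulla and lean cortex, and 1 of the 4 of them called higher with MK-8722. The part of tissue composition in its difference was not tested. Lean vehicle medulla had 12.7 ± 3.58 FPKM and obese vehicle medulla 6.33 ± 1.29 FPKM (SD, n = 5 each), and MK-8722 was above obese vehicle by a log2 difference of 1.15 (limma adjusted p = 0.00218). Enalapril against obese vehicle gave -0.05 (limma adjusted p = 0.888).

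ENSRNOG00000002525 differed strongly between the drugs in cortex but less in medulla. The cortex levels were 0.595 ± 0.258 FPKM with MK-8722 and 5.83 ± 0.714 FPKM with enalapril (SD, n = 5 each), a log2 difference of -2.55 (limma adjusted p = 1.56e-08). In medulla it had 2.25, 3.08, 2.92, 2.82 and 1.43 FPKM with MK-8722, against 3.42, 4.56, 3.01, 5.27 and 3.24 FPKM with enalapril, groups that overlapped narrowly. The medulla difference of -0.56 was not called (limma adjusted p = 0.229), and the effects differed by 1.99 ± 0.32 (SE; limma adjusted p = 0.000547).

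ENSRNOG00000006873 was an abundant ID with a larger effect in cortex. In medulla it had 237, 163, 249, 264 and 123 FPKM with MK-8722, against 159, 77.9, 118, 132 and 99.1 FPKM with enalapril. The ranges overlapped and the log2 difference of 0.81 was not called (limma adjusted p = 0.225). In cortex the means were 347 ± 80.0 FPKM with MK-8722 and 47.2 ± 11.3 FPKM with enalapril (SD, n = 5 each), a log2 difference of 2.86 (limma adjusted p = 1.66e-10). The effects differed by -2.06 ± 0.39 (SE; limma adjusted p = 0.00461), and with the lower range of library numbers alone, which left fewer libraries, by -2.09, not called (limma adjusted p = 0.221).

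In medulla, unlike the risen IDs above, ENSRNOG00000006873 was called against obese vehicle with both drugs. Obese vehicle had 58.9 ± 30.2 FPKM (SD, n = 5), and the log2 differences were 1.95 ± 0.33 for MK-8722 (SE; limma adjusted p = 0.00122) and 1.15 ± 0.33 for enalapril (limma adjusted p = 0.0337). Lean vehicle medulla had 166 ± 15.4 FPKM.

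ENSRNOG00000011269 was highest in cortex with MK-8722 10 mpk, at 4.40, 5.08, 5.68, 4.98 and 5.31 FPKM there against 0.222, 0.331, 0.133, 0.324 and 0.102 FPKM in cortex with enalapril. In medulla it had 0.706, 0.109, 0.801 and 0.681 FPKM in 4 MK-8722 libraries and was listed at 0 in replicate 2, against 0.114 FPKM in 1 enalapril library and a listed 0 in the other 4. It was below the filter in medulla, so no medulla test or fold is given. Of all 50 libraries, 5 reached 1 FPKM, those of cortex with MK-8722 10 mpk, so the ID passed the filter of the tissue fit through the group where it is high. Its tissue difference rested on the pseudocount, being called with 0.5 and not with 0.1 (limma adjusted p = 0.364), and is not read as a result.

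**Figure D4:**
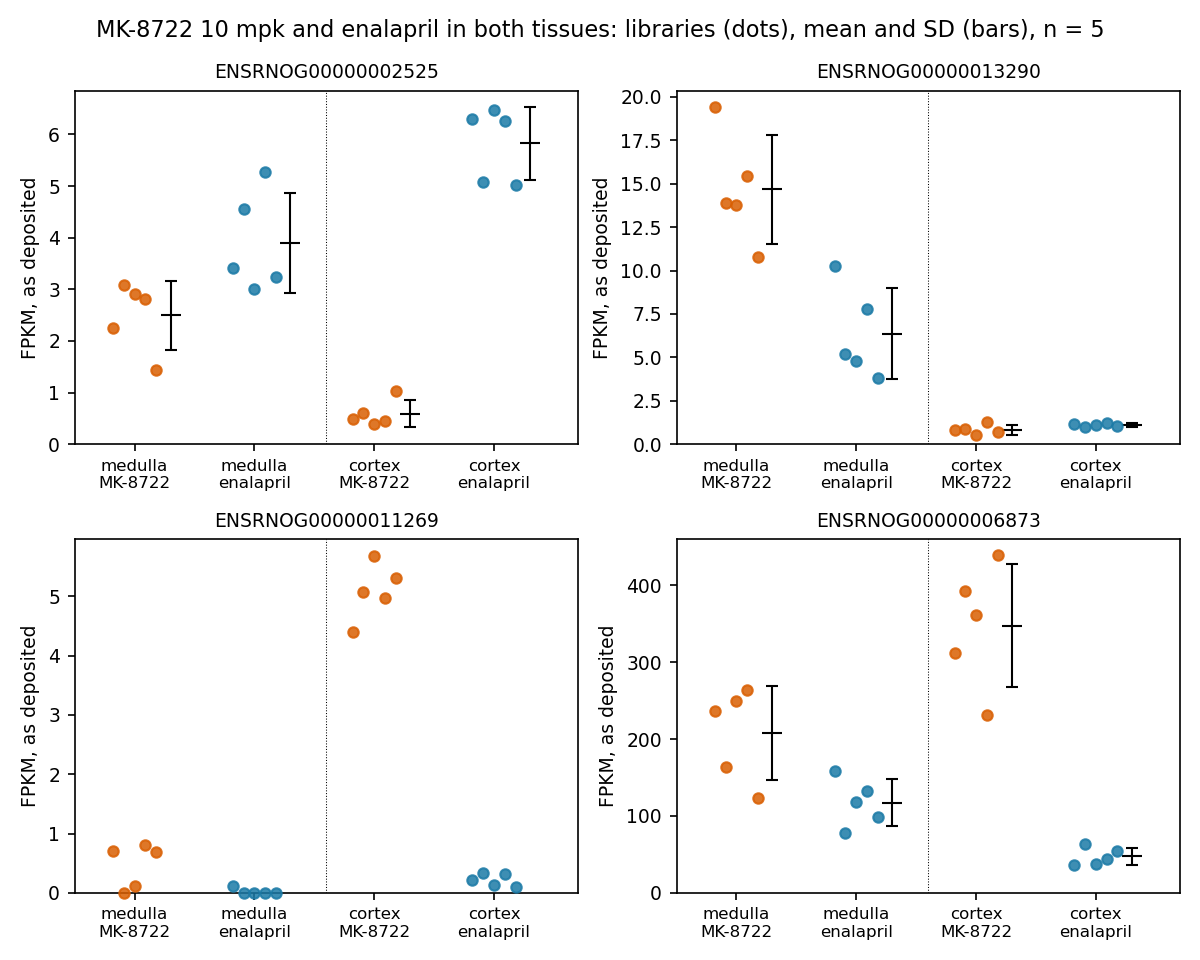
Deposited FPKM on linear axes (y) of the 4 gene IDs named for the tissue difference between MK-8722 10 mpk and enalapril; groups of 5 libraries run along x, medulla left and cortex right of the dotted line, dots are libraries and bars the mean and SD (none drawn for ENSRNOG00000011269, which is listed at 0 in some libraries). ENSRNOG00000013290 separates the drugs in medulla only in this view, while ENSRNOG00000002525 and ENSRNOG00000006873 separate them more widely in cortex. ENSRNOG00000011269 passed the filter through cortex with MK-8722, where it is high, and its tissue difference is not read as a result.

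For the 2 risen and 2 fallen IDs described first, the tissue difference was not called. In cortex ENSRNOG00000013062 had a log2 difference of -3.13 between the drugs (limma adjusted p = 1.21e-06) and ENSRNOG00000018402 one of -1.99 (limma adjusted p = 0.000355). The risen IDs ENSRNOG00000010932 and ENSRNOG00000055586 had 2.21 (limma adjusted p = 1.67e-08) and 0.96 (limma adjusted p = 0.000652). The tissue differences, medulla minus cortex, were -0.72 ± 0.41, -1.59 ± 0.57, -0.72 ± 0.34 and 0.43 ± 0.24 in that order of IDs (SE; limma adjusted p between 0.521 and 0.908). ENSRNOG00000010932 had mean cortex levels of 5.47 FPKM with MK-8722 and 0.785 FPKM with enalapril. At that low enalapril level the pseudocount of 0.5 shrinks the cortex log2 difference, and with it the tissue difference.

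How many genes were called depended on single libraries. When each of the 10 libraries was left out in turn, the count ran from 50 to 186 higher and from 86 to 475 lower genes on the deposited values, and from 94 to 250 higher and 46 to 266 lower after rescaling. Leaving out enalapril replicate 3 raised the lower calls to 475 and leaving out MK-8722 replicate 1 raised them to 443, whereas leaving out MK-8722 replicate 2 left 50 higher and 86 lower. MK-8722 replicates 1 and 5 and enalapril replicate 3 were the libraries whose median absolute log2 distance to the other drug's mean was smaller than to the mean of the other 4 of their own group, on rescaled values. A core of 36 higher and 37 lower genes was called on both scales in every one of these 10 fits. Of this core 34 and 33 genes were tested in cortex, where 29 were called higher and 24 lower with MK-8722 after rescaling and none the opposite way, against 5.64% and 5.72% of all genes tested there.

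**Figure D5:**
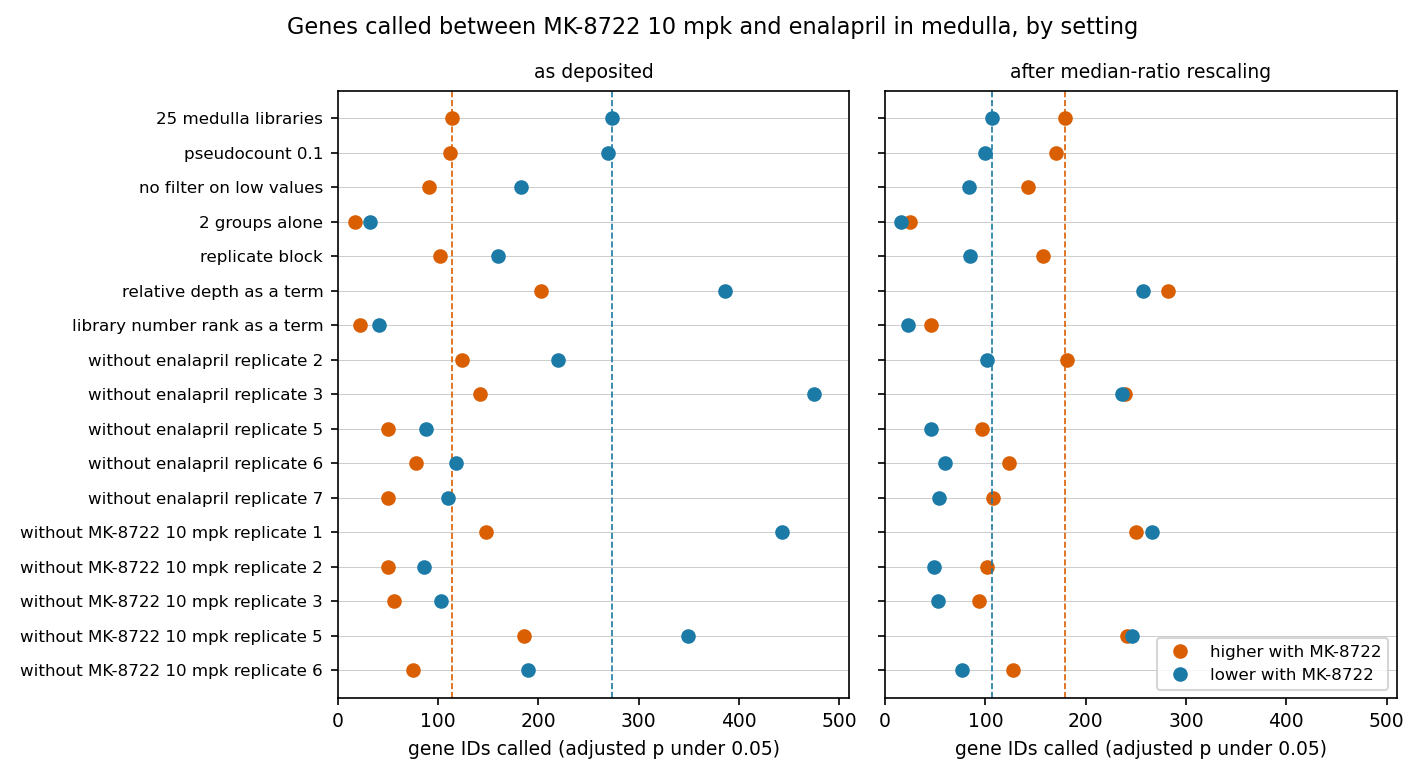
Number of gene IDs called (x, adjusted p under 0.05) higher (orange) and lower (blue) with MK-8722 10 mpk than with enalapril in medulla under each setting (y), on deposited (left) and rescaled values (right); dashed lines mark the counts with all 25 medulla libraries. Counts run from 17 to 203 higher and 32 to 475 lower on deposited values, and from 25 to 282 higher and 16 to 266 lower after rescaling.

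No difference in 3 library measures passed the test. Relative depth, read from the steps of low FPKM values and set to a median of 1 over the 50 libraries, was 0.865 ± 0.128 with MK-8722 and 0.763 ± 0.0983 with enalapril (SD, n = 5 each; exact two-sided permutation p = 0.198, adjusted over 3 measures 0.595). The scaling factor was 0.988 ± 0.0640 with MK-8722 and 1.02 ± 0.0244 with enalapril (exact permutation p = 0.405, adjusted 0.607). The 6 most abundant IDs held 57.6% ± 1.56 with MK-8722 and 56.9% ± 3.07 with enalapril (exact permutation p = 0.698). With 5 against 5 libraries the smallest possible p was 0.00794.

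Library order and tissue-enriched IDs are set beside the gene calls. Ranked by library number among the 25 medulla libraries, the MK-8722 libraries stood at 14, 15, 18, 23 and 25 and the enalapril libraries at 1, 3, 7, 9 and 17, so an effect of that order and the drug are hard to tell apart. With the rank as a term, 22 higher and 41 lower genes were called on deposited values. Of 43 medulla-enriched IDs tested, 4 were called higher with MK-8722 on both scales and none lower, against 0.847% and 0.802% of all genes. Their median log2 difference on deposited values was 0.30, against -0.05 over all genes. The 5 cortex-enriched IDs gave no call and a median of -0.51, and summed to 19.0 to 281 FPKM with MK-8722 and 37.5 to 103 FPKM with enalapril. With MK-8722 the sums were 281 and 167 FPKM in replicates 1 and 5, and 33.4, 19.0 and 72.5 FPKM in replicates 2, 3 and 6. The part of either measure in the gene calls was not tested beyond these fits.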

How the data were processed

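Per the labels' protocols, stranded libraries were made from the total RNA of flash-frozen kidney, depleted of ribosomal RNA. The authors deposited 1 table of FPKM values for 32545 gene IDs in 50 libraries (the build, the aligner and the counter: not given in the sources used here). Columns were matched to samples by the library number in the labels, and all were matched. No 2 libraries held identical values. Counts are not used here, so the absolute depth is unknown; relative depth came from the steps of low values (94.1% of 61485 values in 5129 genes were whole multiples within 0.1 fragments, after a fit that chose the steps).

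Values were analysed as log2(FPKM + 0.5) with limma 3.58.1 in R 4.3.3 (trend and robust options, two-sided, Benjamini-Hochberg adjustment over all genes tested). The fit used a mean for each of 5 groups of 25 medulla libraries, so the groups share an estimate of spread; the tissue difference used all 50. A log2 difference on this scale understates the change of low genes. For rescaled values, a library is divided by the median of its ratios to each gene's geometric mean. Scripts were tested on simulated data. IDs were named by rule: among genes called on both scales, with groups that do not overlap and a mean of at least 2 FPKM in the higher one, the 2 with the largest rise and the 2 with the largest fall, and for the tissue difference the same without the condition on overlap. The contrast, lists and rules were chosen with earlier results of these data known. The planned gene and marker lists were not run, since IDs carry no names.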

Additional observations from a re-analysis of the deposited data

Results flagged for a closer look

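The effect of MK-8722 10 mpk against enalapril was called different between medulla and cortex, by a limma test of the difference itself, in 4 named IDs. The log2 difference, medulla minus cortex, was 1.99 for ENSRNOG00000002525, 1.49 for ENSRNOG00000013290, -2.18 for ENSRNOG00000011269 and -2.06 for ENSRNOG00000006873. ENSRNOG00000011269 passed the filter through cortex with MK-8722 alone, is near 0 in medulla, and was not called with a pseudocount of 0.1 (limma adjusted p = 0.364). Its difference is not read as a result. In the lower range of library numbers, with fewer cortex libraries, ENSRNOG00000013290 (limma adjusted p = 0.164) and ENSRNOG00000006873 (0.221) were not called.

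Among 86 groups of 5 values of the named IDs and library measures, 3 held a library far from the rest, where chance flags about 1 in 20. ENSRNOG00000002525 had 5.79 FPKM in medulla obese vehicle replicate 5. ENSRNOG00000011269 had 0.114 FPKM in medulla enalapril replicate 2 and was listed at 0 in the other 4. ENSRNOG00000006873 had 114 FPKM in medulla MK-8722 1 mpk replicate 2.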

How the results depend on the processing

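Of the higher and lower counts between MK-8722 and enalapril (114 and 273 deposited, 179 and 107 rescaled), a fit of both groups alone gave 17 and 32 deposited and 25 and 16 rescaled calls, of which 16 and 31, and 24 and 16, were calls of the larger fit. Relative depth as a term gave 203 and 386 deposited, 282 and 257 rescaled. The order of library numbers as a term, chosen after seeing the data, gave 22 and 41 deposited, 46 and 23 rescaled. A pseudocount of 0.1 and no filter on low values stayed within 1.5 times of each count. Leaving out 1 library gave 50 to 186 and 86 to 475 deposited, 94 to 250 and 46 to 266 rescaled. On both scales 14 higher and 14 lower genes were called in all of these fits other than that with library order. The cause of these moves was not tested.

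Medulla libraries of the 2 drugs with the same replicate number showed little correlation of their deviations from the group means (between -0.05 and 0.07 for 4 numbers). So few values cannot decide whether the numbers mark anything the libraries share. The replicate block gave 102 and 160 deposited and 157 and 85 rescaled calls, and 30 tissue differences against 19. Under it, ENSRNOG00000018402 against obese vehicle was no longer called after rescaling, at -1.67 for MK-8722 (limma adjusted p = 0.104) and 1.97 for enalapril (0.0640).

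The tissue difference had 15 to 30 calls over the other fits, 16 to 30 when 1 library was left out (29 without cortex MK-8722 replicate 2, 30 without medulla MK-8722 replicate 1), and 4 with the lower range of library numbers, added after seeing the data. ENSRNOG00000055586 in enalapril against obese vehicle, near 0, changed sign to 0.012 with the depth term and ran from -0.061 to 0.061 with 1 library left out. The difference in the share of the 6 most abundant IDs was -0.375 percentage points without enalapril replicate 6 (range to 1.49). The difference in relative depth ran from 0.0547 to 0.131, and in scaling factor from -0.0467 to -0.0093. Depth in fragments is unknown, which limits statements on IDs near 0.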
